A study of Mus musculus with 36 samples.

Results

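The genes described here encode the proteins of the cytosolic ribosome, measured in articular cartilage of mouse knees after surgical induction of osteoarthritis. A gene was taken when its RefSeq symbol began with Rpl or Rps followed by a digit, or was Rpsa, Rplp0, Rplp1 or Rplp2, and when it had a protein-coding transcript in the count tables. The kinases of ribosomal protein S6, whose symbols begin with Rps6k, were left out. This gave 91 of the 23055 genes with a symbol, of which 35 carried a small subunit symbol (Rps or Rpsa) and 56 a large subunit symbol (Rpl or Rplp). For the 10 genes with more than 1 coding transcript, the transcript with the highest mean count was used, and 81 genes had a single one. The symbol rule also took Rps19bp1, a binding partner of Rps19 that is no ribosomal subunit, and genes named as copies, such as Rps27rt and Rpl34-ps1.

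The samples came from C57BL/6J males, 12 weeks old at surgery, that had destabilization of the medial meniscus (DMM) of the right knee, and the unoperated left knee of the same animals served as control, so that no sham-operated or unoperated mice were included. Cartilage was cut from femur and tibia 4 or 12 weeks after surgery, and each library held the tissue of 3 knees pooled. There were 3 control and 3 DMM libraries at each time point for RNA-seq, and 3 and 3 for reduced representation oxidative bisulfite sequencing (RRoxBS), made from DNA of other mice. All animals carried the same genotype, and no treatment other than the operation was given in the labels.

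A ribosome is built from a small subunit, which reads the mRNA, and a large subunit, which joins the amino acids. Its proteins are made in matching amounts in most cells, and many of their mRNAs begin with a run of C and T at the 5′ end, the TOP motif, through which mTOR signalling and the RNA-binding protein Larp1 set their translation. Chondrocytes depend on this machinery to make the collagens and proteoglycans of cartilage, while a few ribosomal protein paralogs are known from a single tissue, such as Rpl3l in striated muscle and Rpl10l in testis.

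The start sites of 8 genes are shown because they differ in the length and place of the C and T run at the start. The sequences are from RefSeq (GRCm38.p6), 5′ to 3′ on the strand of the gene, with 25 bases before the annotated start and 20 from it on, and the capitals mark the longest unbroken run of C and T that reached within 15 bases of the start.
Rpl4, chr9:64173362-64173406, plus strand: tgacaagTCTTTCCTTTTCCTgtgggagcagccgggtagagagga
Rpl15, chr14:18270967-18271011, minus strand: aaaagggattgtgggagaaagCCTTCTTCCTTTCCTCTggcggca
Rps6, chr4:86857348-86857392, minus strand: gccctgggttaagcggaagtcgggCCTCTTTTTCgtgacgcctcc
Rplp2, chr7:141447626-141447670, plus strand: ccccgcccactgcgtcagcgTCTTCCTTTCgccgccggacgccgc
Rpl5, chr5:107900503-107900547, plus strand: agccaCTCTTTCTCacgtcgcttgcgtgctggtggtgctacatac
Rpl22l1, chr3:28805483-28805527, plus strand: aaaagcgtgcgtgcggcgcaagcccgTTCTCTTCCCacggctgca
Rpl3l, chr17:24727801-24727845, plus strand: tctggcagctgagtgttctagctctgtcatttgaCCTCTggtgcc
Rpl10l, chr12:66284382-66284426, minus strand: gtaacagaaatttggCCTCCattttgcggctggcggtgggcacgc
The run was 14 bases long in Rpl4, 17 in Rpl15, 10 in Rps6, Rplp2 and Rpl22l1 and 9 in Rpl5. In the paralogs Rpl3l and Rpl10l it was 5 bases long. The run spans the annotated start in Rpl15, Rps6 and Rplp2, follows it in Rpl22l1 and Rpl3l, and lies wholly before it in Rpl4, Rpl5 and Rpl10l, where the marked bases are thus outside the annotated mRNA.

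A promoter of 300 bases (250 before the start and 50 from it on) was matched for 69 of the 91 genes, and the other 22 had no entry whose start lay within 100 bases of the counted transcript. A C and T run of at least 8 bases reached within 15 bases of the start, on either side, in 33 of the 69 (47.8%), against 17.1% of 17260 promoters of genes of all kinds. A run of at least 10 bases was found in 37.7% of them, against 8.52% of all promoters. Searched on both strands, the letters TTCCGG occurred in 47.8% of the ribosomal protein promoters and in 19.6% of all promoters. CTTTCC, some of whose matches lie inside the C and T runs, occurred in 50.7% and 26.1%. The shares for TATAAA were 11.6% and 13.0%, those for GGGCGG were 59.4% and 47.97%, and those for AAGATGGC were 7.25% and 3.33%. These are matches of letters in a fixed window and were not tested.

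The ribosomal protein genes took a small share of the counts over all transcripts, between 0.150% and 0.265% of a library. With 1 transcript per gene in the total, the ribosomal protein genes took 0.213% to 0.372%. Their median level was 7.99 CPM, the count scaled to a fixed library total after edgeR's TMM adjustment, 41 genes had a mean of at least 10 CPM, and 15 were under 1 CPM. Per kilobase of exon, the highest mean count over the 12 libraries was that of Rpl4, a large subunit protein of the peptide exit tunnel, with 8104 counts per kilobase. Other high values were 6771 counts per kilobase for Rps14, 5236 for Rpl32 and 5200 for Rps9. The 5 most counted genes took 30.4% of all counts on ribosomal protein genes. The median was 334 counts per kilobase for the small subunit and 389 for the large one.

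The levels of these genes were spread over several orders of magnitude, and they varied with how far a gene's sequence is repeated in the genome. Ribosomal protein genes have many processed pseudogenes, so every stretch of 50 bases, the read length, was searched for exact matches on the GRCm38 chromosomes. In the median gene, 9.75% of the coding stretches matched a single place, against 98.2% for the 78 genes of the mitochondrial ribosome, whose median level was 937 counts per kilobase. For 32 ribosomal protein genes no coding stretch matched a single place, and their median level was 79.5 counts per kilobase (range 23.6 to 2962). For 16 genes at least 50% did, and their median level was 2015 counts per kilobase (range 0.0815 to 8104). Across the 91 genes the level rank and the share of single-match coding stretches had a Spearman correlation of 0.57, and with stretches of the whole transcript it was 0.30. Both are descriptions across genes and not tests.

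The clearest example was Rps27, a small subunit protein, on chromosome 3, and its intronless copy Rps27rt on chromosome 9. Both had 0% of their coding stretches at a single place, and their counts were identical in 12 of 12 libraries. The counts of Rpl34-ps1 were 0.870 to 0.941 times those of Rpl34. Rpl11 and Rpl5, which with 5S RNA bind Mdm2, had 23.6 and 156 counts per kilobase, while Rpl41, the shortest ribosomal protein, had 0% and still 2962. Outside the symbol rule, the ribosomal protein Fau had 154 counts per kilobase with 0% of coding stretches at a single place, and Rack1 had 4748 with 96.6%. How reads with several matches were treated is not given in the sources used here. Levels of different members are therefore given as counts and not as amounts of mRNA, and the comparisons that follow set each gene against itself in other libraries.

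**Figure D1:**
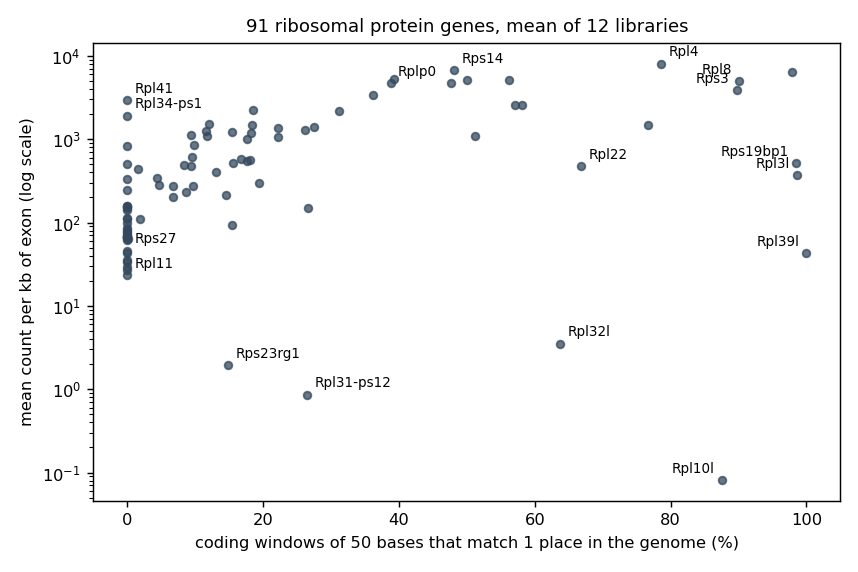
Mean count per kilobase of exon over the 12 libraries (vertical, log scale) against the percentage of 50-base coding stretches that match 1 place on the chromosomes (horizontal), 1 point per ribosomal protein gene (91). The 32 genes at 0% range from 23.6 to 2962 counts per kilobase, and Rpl4 reaches 8104.

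The RNA libraries held 27706547 to 62737656 counts, and the TMM factors ran from 0.892 to 1.09. Markers of cartilage were high in every library, with between 16473 and 56440 CPM summed over 20 chondrocyte genes. Markers of other tissues were present too. The sum over 20 skeletal muscle genes ran from 144 CPM in control replicate 1 at 12 weeks to 29548 CPM in control replicate 1 at 4 weeks. The 10 erythroid genes summed to 7336 to 21556 CPM and the 11 neutrophil genes to 9417 to 44432 CPM. The 9 macrophage genes summed to 2133 to 6652 CPM. In bulk tissue, fewer cells of a type and less RNA per cell cannot be told apart. The labels number the replicates and the study pooled knees for each library, so p-values measure the spread between pools of knees.

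The ribosomal protein genes moved together from library to library, whatever the limb. For each of the 87 genes with enough counts, log2(CPM + 0.5) was set against the gene's own mean over the 12 libraries. At 4 weeks the median of these deviations was −0.27, −0.17 and 0.09 in control replicates 1 to 3 and −0.17, 0.26 and 0.39 in DMM replicates 1 to 3. At 12 weeks it was 0.02, 0.09 and −0.09 in the control and −0.20, −0.06 and 0.11 in the DMM replicates. The same median over all transcripts stayed between −0.04 and 0.02. The libraries of a group differed, with a pooled SD of 0.20 over the 4 groups.

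In DMM replicate 3 at 4 weeks 52 of the 87 genes had their highest value, and in control replicate 1 at 4 weeks 35 had their lowest. DMM replicate 1 at 4 weeks stood with the low controls, since only 13 of its 87 genes lay above their own mean, against 76 and 74 in the other DMM replicates at that time. At 12 weeks the DMM libraries differed too, with 12 genes above their mean in replicate 1 and 79 in replicate 3.

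**Figure D2:**
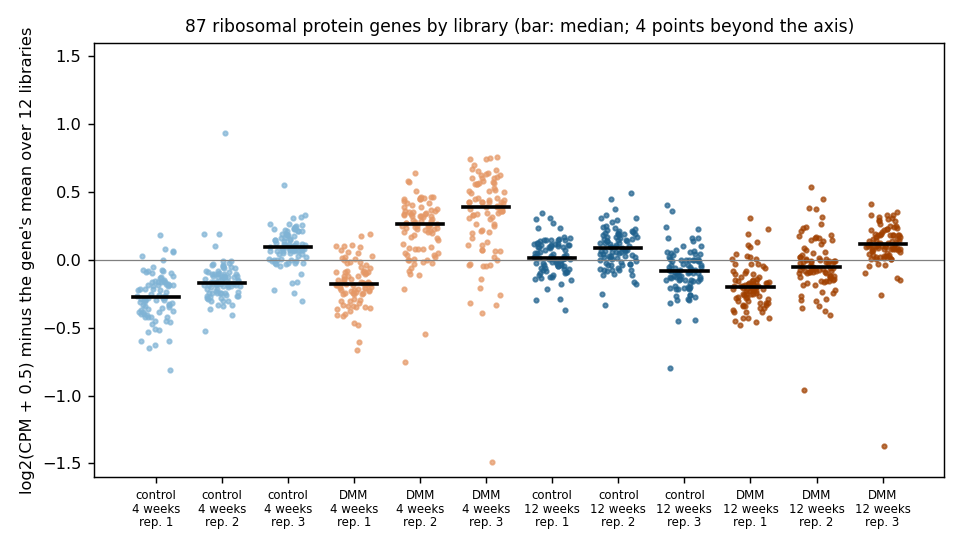
Deviation of each of 87 ribosomal protein genes from its own mean over 12 libraries, in log2(CPM + 0.5) (vertical), by library (horizontal, coloured by limb and week), with 1 point per gene and a bar at the median. The medians run from −0.27 in control replicate 1 to 0.39 in DMM replicate 3, both at 4 weeks, and the 3 libraries of a group are often further apart than the groups. Another 4 points lie beyond the axis.

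The first comparison asked which ribosomal protein genes differed between DMM and control cartilage at 4 weeks, the early stage of disease. No gene of the set was called by edgeR, and most stood a little higher in DMM cartilage. Of the 87 genes tested, 77 had a higher and 10 a lower mean, with a median log2 difference of 0.30 (quartiles 0.13 and 0.40), whereas 47.5% of all transcripts were higher and their median was −0.03. Both subunits had close medians, with values of 0.29 for 34 small subunit and 0.31 for 53 large subunit genes. The share of the library's counts on these genes was 0.190% ± 0.0435 in control and 0.234% ± 0.0427 in DMM cartilage (SD, n = 3), a difference about as large as the SD.

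In the quasi-likelihood test of edgeR, adjusted after Benjamini and Hochberg over all transcripts, 0 of 87 genes had an adjusted p under 0.05, and the lowest was 0.252. Over all 21140 transcripts 16 were called (0.0757%). Unadjusted, 4 genes were higher at p under 0.05, where the share over all transcripts was 6.11%, and 1 was lower, where it was 7.57%. DESeq2, run on every transcript with any count, called 1 of 90 genes of the set, Rpl3l, and 2.89% of all transcripts.

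The largest positive differences were those of Rps3a1 and Rpl3. Rps3a1, a small subunit protein, had 17.0, 22.3 and 30.2 CPM in the control and 28.3, 40.6 and 45.9 CPM in the DMM libraries. The lowest DMM library lay below the highest control, and the log2 difference was 0.71 (SE 0.27, edgeR adjusted p = 0.341). Rpl3, which lies near the peptidyl transferase centre, had 5.90, 8.80 and 11.5 CPM in control and 10.7, 14.8 and 17.3 CPM in DMM cartilage, with a log2 difference of 0.70 (SE 0.30). Rpl27a, Rps28 and Rpl39 followed with log2 differences of 0.68, 0.66 and 0.59 (SE 0.26, 0.36 and 0.29).

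The 3 DMM libraries did not overlap with the control libraries for 3 genes that were higher, Rpl15, Rpl27a and Rpl17, where the share over all transcripts was 10.8%. Rpl15, a large subunit protein with the longest start run printed above, had 9.37, 9.57 and 11.1 CPM in control and 12.1, 16.6 and 16.2 CPM in DMM cartilage. Its log2 difference was 0.57 (SE 0.21, edgeR adjusted p = 0.328). Rpl27a had 3.02, 3.49 and 3.70 CPM in control and 4.13, 5.62 and 6.71 CPM in DMM cartilage.

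The most counted genes were split. Rpl4 had 212, 255 and 308 CPM in control and 243, 336 and 394 CPM in DMM cartilage, and the limbs overlapped (log2 difference 0.32, SE 0.26). Rps14 had 87.9, 88.1 and 94 CPM in control and 88.1, 113 and 138 CPM in DMM cartilage. In both, DMM replicate 1 was among the controls and DMM replicates 2 and 3 were above the highest control. For Rps9, with 64.7, 72.1 and 95.0 CPM in control and 70.7, 86.6 and 88.0 CPM in DMM cartilage, all DMM libraries were below the highest control, and the same held for Rpl8, with 72.1, 90.5 and 119 against 88.0, 114 and 104 CPM. Rps6, the substrate of the S6 kinases, had 4.45, 4.51 and 5.23 CPM in control and 4.60, 6.93 and 8.50 CPM in DMM cartilage (log2 difference 0.49, SE 0.28).

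The stalk proteins, which recruit the elongation factors, did not all go one way. Rplp0, the base of the stalk, had 132, 142 and 156 CPM in control and 128, 174 and 180 CPM in DMM cartilage, and Rplp1 33.7, 31.3 and 37.4 against 31.3, 43.5 and 47.5 CPM. Rplp2, which pairs with Rplp1, had 23.5, 17.7 and 24.2 CPM in control and 16.7, 20.7 and 16.9 CPM in DMM cartilage. Its log2 difference of −0.27 (SE 0.21) was the lowest of the set after Rpl3l, ahead of −0.20 (SE 0.42) for Rps27 and Rps27rt, which share their counts, and −0.19 (SE 0.39) for Rpl9. Rpsa, the laminin receptor protein of the small subunit, had a log2 difference of 0.39 (SE 0.32), Rpl5 of 0.39 (SE 0.27), Rpl41 of 0.30 (SE 0.22) and Rpl11 of 0.20 (SE 0.36). For Rps19bp1, which is no subunit, it was −0.04 (SE 0.21).

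Single libraries set the size of the shift. The median of 0.30 was 0.47 without DMM replicate 1 and 0.18 without DMM replicate 3, and leaving out any one library called no gene. The genes at an unadjusted p under 0.05 by edgeR numbered 5 with all libraries, 19 without DMM replicate 1 and 1 without DMM replicate 3. The share of all transcripts at that p without these libraries is not reported here. The change is therefore not shown to be particular to the set, and neither run called a transcript after adjustment. Markers moved with limb and with these libraries. The muscle sum was 7722 to 29548 CPM in the control and 788 to 4649 CPM in the DMM libraries, the osteoblast sum over 10 genes was 6546 to 7281 and 8745 to 11149 CPM, and neither overlapped, while the macrophage sums of 2133 to 4642 and 3112 to 6652 CPM did. The chondrocyte sum was 23052 to 56440 CPM in the control and 19099 to 30394 CPM in the DMM libraries, and DMM replicates 2 and 3, with 19520 and 19099 CPM, were below every control. Several marker sums moved with the ribosomal protein medians over the 6 libraries. The chondrocyte sum was lower where the medians were higher, apart from control replicate 2 and DMM replicate 1, whose medians were nearly equal, and the muscle sum did so apart from DMM replicate 1. The macrophage sum had the order of the medians, with 2133, 3334 and 4642 CPM in control and 3112, 4875 and 6652 CPM in DMM replicates 1 to 3. The erythroid sum had that order in the control replicates (7648, 9956 and 21556 CPM) but not in the DMM replicates (7336, 15920 and 14170 CPM). The part of these in the ribosomal protein shift was not tested. With all marker genes taken out of the library total, the share of ribosomal protein counts was 0.202% ± 0.0478 in control and 0.243% ± 0.0451 in DMM cartilage (SD, n = 3).

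**Figure D3:**
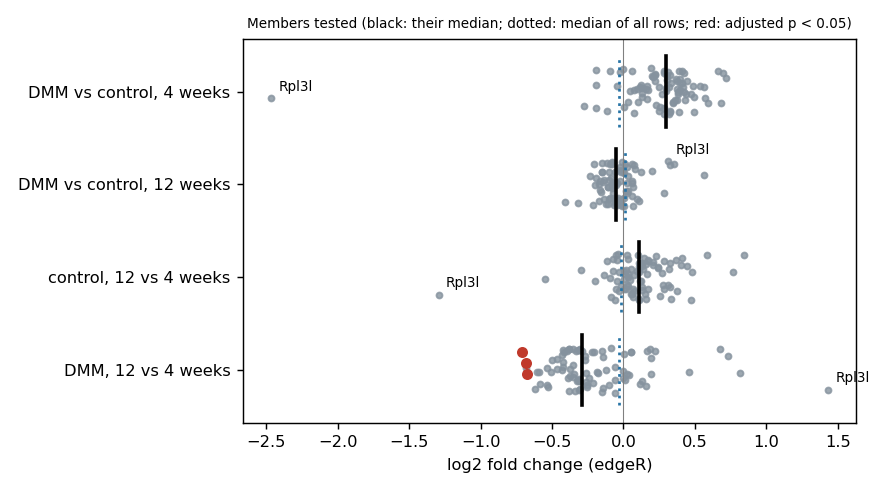
Log2 difference by edgeR (horizontal) of 87 ribosomal protein genes in each of 4 comparisons (vertical), 1 point per gene, with a black bar at their median, a dotted line at the median of all transcripts and red points at adjusted p under 0.05. The medians are 0.30, −0.05, 0.11 and −0.29, and the red points are Rpl7, Rps3a1 and Rpl22l1. Comparisons that share a group of libraries are not independent.

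Rpl3l stood apart from the other genes. It is the striated muscle paralog of Rpl3, on chromosome 17 (NM_001163945, chr17:24727826-24736143, plus strand, 10 exons), and 98.6% of its coding stretches match a single place, so that its counts can be told from those of Rpl3. It had 43.7, 13.1 and 9.97 CPM in control and 6.20, 3.74 and 2.04 CPM in DMM cartilage at 4 weeks. Every DMM library was below every control library, and it was the only gene of the set that was lower without overlap, where the share over all transcripts was 10.3%. The log2 difference was −2.47 (SE 0.63, edgeR adjusted p = 0.252), and with DESeq2 it was −2.48 with an adjusted p of 0.00146. With the replicate number as a block it was −2.31 (SE 0.27, edgeR adjusted p = 0.0104), though no label says that a number marks the same mice in both limbs.

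At 12 weeks Rpl3l had 0.569, 5.15 and 21.6 CPM in control and 27.6, 3.18 and 2.25 CPM in DMM cartilage. The limbs overlapped over nearly their whole range, and the log2 difference of 0.31 had an SE of 1.61. Rpl3 itself had 12.7, 10.5 and 10.3 CPM in control and 8.18, 9.60 and 12.8 CPM in DMM cartilage at that time.

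The level of Rpl3l followed that of skeletal muscle genes across libraries. Over the 12 libraries, its log2 CPM and the log2 of the muscle sum had a Pearson r of 0.977 and a Spearman rho of 0.986 (permutation test, two-sided, p = 2e-05 for both, the smallest that 100000 permutations can give). Without the 2 libraries farthest from the median muscle level, r was 0.969 (n = 10, permutation p = 4e-05). Within 4 weeks r was 0.982 (n = 6, exact permutation p = 0.00278) with a rho of 1.0, and within 12 weeks r was 0.983 (n = 6, exact permutation p = 0.0111) with a rho of 0.886. Within the DMM group at 12 weeks the order turned between replicate 2, with 3.18 CPM at a muscle sum of 855 CPM, and replicate 3, with 2.25 CPM at 1198 CPM. Over the 8 coefficients of these 4 overlapping sets of libraries, the Benjamini-Hochberg adjusted permutation p ran from 8e-05 to 0.0333. Per 1000 CPM of muscle genes, Rpl3l stood at 1.48, 1.45 and 1.29 CPM in control and 1.33, 1.68 and 2.59 CPM in DMM cartilage at 4 weeks, and on that scale the limbs overlapped. At 12 weeks it stood at 3.96, 2.05 and 1.11 CPM in control and 1.78, 3.71 and 1.88 CPM in DMM cartilage. The ratio was not constant over muscle levels, with 3.96 at a muscle sum of 144 CPM and 1.11 at 19550 CPM.

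**Figure D4:**
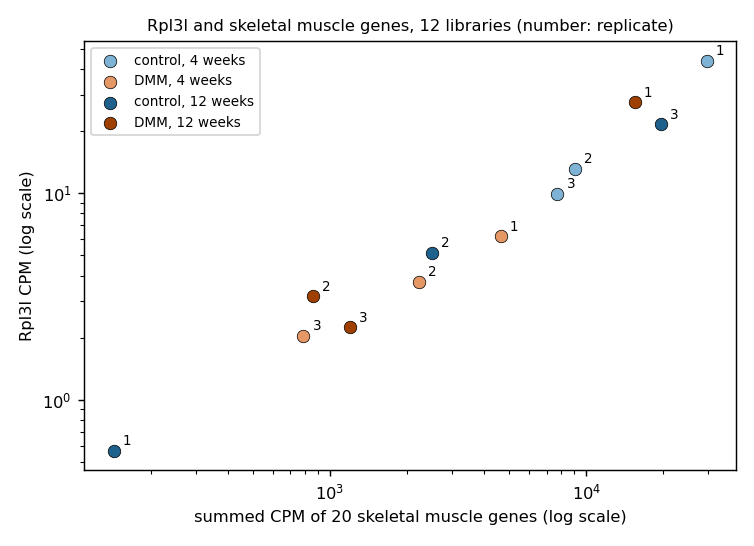
Rpl3l in CPM (vertical, log scale) against the summed CPM of 20 skeletal muscle genes (horizontal, log scale), 1 point per library (12), coloured by limb and week and numbered by replicate. The points follow 1 line from 0.569 CPM at a muscle sum of 144 CPM to 43.7 CPM at 29548 CPM.

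At 12 weeks, with cartilage damage established, more of the ribosomal protein genes were lower than higher in DMM cartilage, most by a small amount. Of 87 genes 27 were higher and 60 lower in DMM cartilage, with a median log2 difference of −0.05 (quartiles −0.11 and 0.02), and 51.5% of all transcripts were higher with a median of 0.01. Scaled by library totals without TMM, the split was 16 higher and 71 lower. The small subunit genes had a median of −0.07 and the large subunit genes of −0.04. The share of counts was 0.204% ± 0.00675 in control and 0.189% ± 0.0220 in DMM cartilage (SD, n = 3). Of the marker sums, those of macrophages (4394 to 5863 CPM in control and 3598 to 4250 CPM in DMM cartilage) and B lymphocytes (294 to 342 and 179 to 280 CPM) were lower in DMM cartilage without overlap, and their part in these differences was not tested.

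None of the 87 genes was called by edgeR, with 1 transcript of 21010 called (0.00476%), 0 genes of the set at an unadjusted p under 0.05 in either direction, and a lowest adjusted p of 0.433. Over all transcripts 8.94% were higher and 7.39% lower at an unadjusted p under 0.05, and DESeq2 called 0 of the set and 3.41% of all transcripts. The limbs did not overlap for Rpl36, which was higher (10% of all transcripts), and for Rps29 and Rpl12, which were lower (8.84% of all transcripts). Rpl36 had 1.02, 1.23 and 1.09 CPM in control and 1.37, 1.57 and 1.32 CPM in DMM cartilage (log2 difference 0.35, SE 0.28). Rpl12, a protein of the stalk base, had 1.4, 1.6 and 1.3 against 1.08, 0.880 and 1.25 CPM (log2 difference −0.41, SE 0.29).

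After Rpl12 the lowest log2 differences at 12 weeks were −0.32 for Rpl28, −0.23 for Rpl19 and −0.21 for both Rpl27 and Rps7 (SE 0.45, 0.30, 0.29 and 0.17). Without single libraries they ran from −0.53 to −0.13 for Rpl28, −0.37 to −0.05 for Rpl19, −0.37 to −0.04 for Rpl27 and −0.29 to −0.15 for Rps7. The highest log2 differences were 0.56 for Rpl39l (SE 0.50), 0.35 for Rpl36, 0.33 for Rpl27a and 0.29 for Rpl15 (SE 0.22 and 0.18), beside Rpl3l. Rpl4, the gene with the most counts per kilobase, had 266, 259 and 239 CPM in control and 212, 223 and 271 CPM in DMM cartilage (log2 difference −0.11, SE 0.15). The median turned to 0.03 without DMM replicate 1, with 51 genes higher and 36 lower. EdgeR called 860 of 21261 transcripts without control replicate 2 and 102 of 21213 without DMM replicate 3, with 0 genes of the set in both.

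Whether the limb difference itself changed between 4 and 12 weeks was tested as the interaction of limb and week over all 12 libraries. The log2 limb difference was lower at 12 weeks than at 4 weeks for 77 of 87 genes, with a median of −0.35, where 48.1% of all transcripts were lower and their median was 0.03. By edgeR 0 of the 87 genes and 0 of 21618 transcripts (0.0%) were called, the lowest adjusted p of the set was 0.405, and at an unadjusted p under 0.05, 3 genes were lower (4.48% of all transcripts) and 0 higher (7.8%). DESeq2 called 0 of the set and 16 transcripts (0.0613%). The largest negative terms were −0.84 for Rpl3 (SE 0.37), −0.79 for Rps3a1, −0.73 for Rps28, −0.65 for Rpl39 and −0.64 for Rpl17. The highest were 2.76 for Rpl3l (SE 1.76), 0.44 for Rpl36, 0.29 for Rpl9, 0.27 for Rplp2 and 0.25 for Rpl39l. Without single libraries the term ran from 0.73 to 4.41 for Rpl3l and from 0.03 to 0.69 for Rpl9. The median was −0.21 without DMM replicate 3 at 4 weeks and −0.52 without DMM replicate 1 at 4 weeks. The number of genes at an unadjusted p under 0.05 by edgeR was 0 without the former library and 27 without the latter. The share of all transcripts at that p in these runs is not reported here. The change is therefore not shown to be particular to the set, and neither run called a transcript after adjustment.

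The time points were then compared within each limb. Age, time after surgery and any processing of each harvest differ together in these comparisons and cannot be told apart. In control cartilage 68 genes were higher and 19 lower at 12 weeks than at 4 weeks, with a median log2 difference of 0.11, where 48.5% of all transcripts were higher. None of the 87 was called by edgeR (0 of 21222 transcripts, 0.0%, lowest adjusted p 0.167), 2 were higher at an unadjusted p under 0.05 (10.8% of all transcripts), and DESeq2 called 0 of the set and 10.1% of all transcripts. Those 2 were Rpl10a and Rpl12. Rpl10a, which forms the L1 stalk at the tRNA exit site, had 1.05, 0.722 and 0.986 CPM at 4 weeks and 1.47, 1.97 and 1.58 CPM at 12 weeks (log2 difference 0.85, SE 0.29). The neutrophil sum was 9417 to 27274 CPM at 4 weeks and 26552 to 44432 CPM at 12 weeks in these libraries, the macrophage sum 2133 to 4642 and 4394 to 5863 CPM, and the sum of dividing cell markers 355 to 1115 and 933 to 1295 CPM. Each overlapped, and their part in the shift was not tested. For Rpl12 the log2 difference was 0.77 (SE 0.26), for Rps29 0.48 and for Rpl9 0.47 (SE 0.29).

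The control libraries of both weeks did not overlap for 9 genes that were higher at 12 weeks (16.5% of all transcripts) and for 1, Rpl15, that was lower (10.9%). Beside Rpl10a, Rpl12, Rps29 and Rpl9, the 9 were Rps27a, Rpl10, Rpl36, Rpl27 and Rps13. The lowest log2 differences were −1.29 for Rpl3l (SE 1.12), −0.55 for Rpl39l (SE 0.45), −0.30 for Rpl15, −0.20 for Rpl27a and −0.14 for Rpl22. Without control replicate 1 at 4 weeks, the library with the most muscle signal, the median was −0.03, with 38 genes higher and 49 lower. Without control replicate 3 at 4 weeks, edgeR called 3926 of 21502 transcripts and 0 genes of the set.

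In DMM cartilage the ribosomal protein genes were mostly lower at 12 weeks than at 4 weeks, and 3 of them fell. Of 87 genes 66 were lower and 21 higher, with a median log2 difference of −0.29, where the median of all transcripts was −0.03. The DMM libraries of 4 weeks are the same as in the limb comparison at 4 weeks, so that these values are not a second measurement of the shift there. By edgeR 3 of 87 genes were lower with an adjusted p under 0.05 and 0 higher, in a comparison that called 4980 of 20951 transcripts (23.8%), 11.7% lower and 12.1% higher. The share of the ribosomal protein genes called was thus below that of all transcripts in both directions. Unadjusted, 12 were lower and 2 higher at p under 0.05, where the shares of all transcripts were 19.5% each. Of the marker sums in DMM cartilage, 3 did not overlap between the weeks. The chondrocyte sum was 19099 to 30394 CPM at 4 weeks and 32061 to 51428 CPM at 12 weeks, the neutrophil sum 13816 to 20689 and 21521 to 34604 CPM, and the endothelial sum 182 to 205 and 114 to 149 CPM. Their part in the ribosomal protein values was not tested.

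The 3 genes that fell were Rpl7, Rps3a1 and Rpl22l1. Rpl7, a large subunit protein, on chromosome 1 (NM_011291, chr1:16101295-16104433, minus strand), had 30.3, 39.9 and 49.4 CPM at 4 weeks and 25, 25.5 and 26.4 CPM at 12 weeks. Its log2 difference was −0.68 (SE 0.20, edgeR adjusted p = 0.0322), and in control cartilage it had 22.3 to 32.4 CPM at 4 weeks and 24.2 to 28.3 CPM at 12 weeks. Rps3a1 (NM_016959, chr3:86137940-86142668, minus strand) had 28.3, 40.6 and 45.9 CPM and then 20.5, 25.3 and 27.7 CPM, a log2 difference of −0.69 (SE 0.21, edgeR adjusted p = 0.0400). All 12-week DMM libraries of both genes lay below all 4-week DMM libraries.

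Rpl22l1, the paralog of Rpl22 that can take its place in the large subunit (NM_026517, chr3:28805508-28807424, plus strand), had 6.78, 8.31 and 10.03 CPM at 4 weeks and 4.57, 5.09 and 6.16 CPM at 12 weeks. It fell by 0.71 on the log2 scale (SE 0.23, edgeR adjusted p = 0.0482). Rpl22 had 24.4, 31.5 and 32.4 CPM at 4 weeks and 19.3, 22.7 and 24.1 CPM at 12 weeks, without overlap but not called (log2 difference −0.46, SE 0.18, edgeR adjusted p = 0.0837). These 4 genes were the ones lower without overlap (19.4% of all transcripts), and Rplp2, Rpl36 and Rpl10a were higher without overlap (23.7%).

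Just short of the threshold were Rps4x with a log2 difference of −0.68 (SE 0.24, edgeR adjusted p = 0.0589) and Rpl15 with −0.62 (SE 0.22, edgeR adjusted p = 0.0594). The highest log2 differences were 1.43 for Rpl3l (SE 1.18), 0.81 for Rpl36 (SE 0.33), 0.73 for Rpl9, 0.68 for Rpl10a and 0.46 for Rplp2 (SE 0.18, edgeR adjusted p = 0.0819). Leaving out DMM replicate 2 or 3 at 4 weeks, or any DMM replicate at 12 weeks, called 0 genes of the set. Those runs called 1995 to 2971 transcripts. Without DMM replicate 1 at 4 weeks, the low one, 17 of 87 genes were called, beside 7441 of 21380 transcripts. The share of the set was below that of all transcripts there too. DESeq2 called 7 and 24.6% of all transcripts. Of the 3 genes, Rpl7 was called under every setting that kept all 6 libraries. Rpl22l1 was not called with RLE size factors, with no filter on low counts or with 1 transcript per gene, and Rps3a1 was not called with 1 transcript per gene or with all 12 libraries in 1 fit.

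Paralogs and their partners are given side by side. Rpl36al, an autosomal paralog, had 14.3 to 25.3 CPM over the 12 libraries, and its X-linked partner Rpl36a 0.541 to 1.02 CPM, with log2 limb differences at 4 weeks of 0.40 (SE 0.21) and 0.43 (SE 0.35). Rps27l, a p53 target, had 50.8 to 101 CPM, and its log2 differences were 0.49 (SE 0.22) between the limbs at 4 weeks and −0.59 (SE 0.21, edgeR adjusted p = 0.0637) between the weeks in DMM cartilage. Rpl7l1, which acts in ribosome assembly rather than in the mature subunit, had 72.7 to 104 CPM, with log2 differences of 0.10 (SE 0.19) and 0.00 (SE 0.18), beside 0.54 (SE 0.24) and −0.68 for Rpl7. Whether a paralog differed from its partner was not tested.

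The remaining paralogs had few counts. Rpl39l had 0.722 to 1.27 CPM at 4 weeks and 0.245 to 1.19 CPM at 12 weeks, and Rpl39 between 6.98 and 17.2 CPM. Rpl10l had 1 count in 1 of 12 libraries, DMM replicate 2 at 4 weeks, while Rpl10 had 2.13 to 3.22 CPM. Rpl10l was 1 of the 4 genes not tested, with Rpl31-ps12, Rpl32l and Rps23rg1, whose counts never passed 6 in a library.

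Genes that act with the ribosome are given beside these, from lists compiled with the ribosomal protein results known. At 4 weeks 14 of 18 translation factors and other TOP mRNAs were higher in DMM cartilage, with a median log2 difference of 0.28, and 0 were called by edgeR. Over all transcripts 47.5% were higher, with a median of −0.03, and 16 of 21140 were called. Eef1a1, the elongation factor that brings in aminoacyl-tRNA, had 154, 214 and 226 CPM in control and 223, 282 and 331 CPM in DMM cartilage (log2 difference 0.48, SE 0.24). The scaffold protein Rack1 had 108, 115 and 160 against 114, 168 and 184 CPM (log2 difference 0.27, SE 0.26). The 28 genes of ribosome assembly were split evenly, with 15 higher, 13 lower and a median of 0.05, and of the 78 mitochondrial ribosomal protein genes 52 were higher with a median of 0.08.

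Of 14 genes of growth signalling to ribosome synthesis, 11 were lower in DMM cartilage at 4 weeks with a median of −0.52, and 0 were called by edgeR. Over all transcripts 52.5% were lower, with a median of −0.03. Larp1, the TOP mRNA binding protein, had 41.9, 21.4 and 17.4 CPM in control and 19.5, 11.3 and 14.6 CPM in DMM cartilage (log2 difference −0.83, SE 0.36, edgeR adjusted p = 0.366). Eif4ebp2, an mTOR-controlled repressor of translation, had 19.3, 18.2 and 19.2 against 14.5, 9.60 and 5.82 CPM (log2 difference −0.92, SE 0.32, edgeR adjusted p = 0.320). At 12 weeks, in the interaction and in the control time course, 0 genes of any of these lists were called. Over all transcripts these comparisons called 1 of 21010, 0 of 21618 and 0 of 21222.

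Between the weeks in DMM cartilage, 6 of the 14 growth signalling genes rose and 0 fell, in the comparison that called 12.1% of all transcripts as higher. Max, the partner of Myc, had 17.2, 23.5 and 20.6 CPM at 4 weeks and 99.1, 119 and 52.4 CPM at 12 weeks, and rose by 2.09 on the log2 scale (SE 0.28, edgeR adjusted p = 0.00376). Rps6kb2, an S6 kinase, rose by 1.37 (SE 0.25, edgeR adjusted p = 0.00716) and Eif4ebp2 by 1.30 (SE 0.31, edgeR adjusted p = 0.0171). Of 28 ribosome assembly genes 3 rose and 0 fell, a share near that of all transcripts called higher, and Rrs1, Gar1 and Bysl rose by 0.95, 0.85 and 0.80 (SE 0.19, 0.20 and 0.21). Among the TOP mRNAs the initiation factor subunit Eif3f rose by 0.72 and Eif3e fell by 0.91 (edgeR adjusted p = 0.0403 and 0.0156), and of 78 mitochondrial ribosomal protein genes 2 rose and 4 fell, in the comparison that called 11.7% of all transcripts as lower.

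Methylation of the promoters was read from oxidative bisulfite (oxBS) libraries. In these the percentage of C at a CpG counts 5-methylcytosine (5mC) without 5-hydroxymethylcytosine, plus any cytosine left unconverted. How much of a percentage near 0 is unconverted cytosine was not measured here. Reads were summed over CpG cytosines within 500 bases of the start, each with at least 10 reads in all 6 libraries of a week, and 81 of the 91 genes had at least 3 such cytosines at each week. Nearly all of these promoters had almost no 5mC. At 4 weeks 75 of the 81 (92.6%) were under 1% 5mC, against 71.7% of 13935 promoters of all genes, and at 12 weeks 77 (95.1%), against 76.8% of 13785. The median was 0.66% at 4 weeks and 0.32% at 12 weeks, beside 0.75% and 0.41% for all promoters.

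The exceptions were 3 tissue-restricted paralogs over 50% 5mC at both weeks, Rpl3l, Rpl39l and Rpl10l, where 4.73% and 4.84% of all tested promoters were as high. Of the rest, Rpl5, Rpl13a and Rpl10a were over 1% at 4 weeks (2.66%, 1.11% and 1.03% as the mean of the 6 library percentages), and Rpl5 was so at 12 weeks (2.77%). With reads summed over the libraries of a limb, Rpl13a was under 1% at 4 weeks, with 0.658% in control and 0.866% in DMM cartilage. Rpl10a had 1.09% and 0.926% by that measure. The promoters of the 3 paralogs are printed with that of Rpl4 (RefSeq, GRCm38.p6, 5′ to 3′ on the strand of the gene, 200 bases before the start and 20 from it on), and capitals mark each CG. The cytosines read lie within 500 bases on either side of the start and had to pass the depth minimum, so that they are not the same set as the marked ones.
Rpl4, chr9:64173187-64173406, plus strand: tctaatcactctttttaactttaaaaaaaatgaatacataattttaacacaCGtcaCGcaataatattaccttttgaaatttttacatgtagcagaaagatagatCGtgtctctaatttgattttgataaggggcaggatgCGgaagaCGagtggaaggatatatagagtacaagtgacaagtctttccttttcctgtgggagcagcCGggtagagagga
Rpl3l, chr17:24727626-24727845, plus strand: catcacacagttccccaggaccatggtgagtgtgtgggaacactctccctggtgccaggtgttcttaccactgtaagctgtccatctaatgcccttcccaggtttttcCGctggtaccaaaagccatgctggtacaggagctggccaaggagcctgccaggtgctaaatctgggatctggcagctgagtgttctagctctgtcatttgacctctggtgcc
Rpl39l, chr16:10170028-10170247, plus strand: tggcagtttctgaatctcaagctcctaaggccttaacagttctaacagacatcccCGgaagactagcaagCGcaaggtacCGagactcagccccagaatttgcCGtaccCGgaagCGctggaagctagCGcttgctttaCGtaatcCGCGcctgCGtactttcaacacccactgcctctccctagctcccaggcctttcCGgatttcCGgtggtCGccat
Rpl10l, chr12:66284382-66284601, minus strand: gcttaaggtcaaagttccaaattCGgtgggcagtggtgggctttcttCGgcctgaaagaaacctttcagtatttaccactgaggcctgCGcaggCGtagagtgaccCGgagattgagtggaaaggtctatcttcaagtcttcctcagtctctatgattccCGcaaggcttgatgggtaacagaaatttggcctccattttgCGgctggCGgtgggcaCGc
The printed stretch holds 6 CG in Rpl4, 1 in Rpl3l, 14 in Rpl39l and 9 in Rpl10l. Over the full promoter window 91.3% of the matched ribosomal protein genes had at least 10 CG, against 58.7% of all promoters.

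Rpl10l, read at 16 cytosines, had 95.1%, 96.1% and 94.2% 5mC in control and 95.5%, 98.0% and 95.9% in DMM cartilage at 4 weeks. Rpl39l, read at 28 cytosines, had 81.4%, 77.8% and 78.4% in control and 80.4%, 78.8% and 72.9% in DMM cartilage. Rpl3l, read at 9 cytosines, had 64.7%, 58.4% and 60.7% in control and 58.1%, 56.1% and 58.2% in DMM cartilage. The limbs overlapped for Rpl10l and Rpl39l, and for Rpl3l every DMM library was below every control library by a margin smaller than the range of the control libraries.

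At 12 weeks Rpl3l had 61.8% ± 1.73 5mC in control and 61.8% ± 0.192 in DMM cartilage (SD, n = 3). Rpl39l had 79.97% ± 0.566 and 77.5% ± 2.27, and Rpl10l 95.0% ± 1.43 and 95.8% ± 0.705. Rpl4, at 15 cytosines, had 0.351% ± 0.177 in control and 0.643% ± 0.0408 in DMM cartilage at 4 weeks, and 0.694% ± 0.518 and 0.265% ± 0.122 at 12 weeks, so that its order turned between the weeks. Between the highly methylated paralogs and the rest stood Rpl5, with 2.48% ± 0.195 in control and 2.84% ± 0.399 in DMM cartilage at 4 weeks and 3.16% ± 1.24 and 2.38% ± 0.790 at 12 weeks, in the turned order. It was chosen for mention after its values were seen.

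No promoter was called between DMM and control cartilage. By the quasi-binomial F test on methylated and unmethylated reads, a logistic model with overdispersion fitted to each promoter, 0 of 13935 promoters were called at 4 weeks and 0 of 13785 at 12 weeks after Benjamini-Hochberg adjustment (0.0% at both). At an unadjusted p under 0.05 there were 117 and 649 promoters, 0 of them of ribosomal protein genes. The 117 of 13935 at 4 weeks are fewer than a level of 0.05 would give without any true difference. The quasi-binomial test was thus conservative there, and its lack of calls does not show that the limbs were alike. Limma on log2 ratios of the same reads called 0 promoters too. At an unadjusted p under 0.05 limma had 562 promoters at 4 weeks and 1091 at 12 weeks, of which 2 and 5 were of ribosomal protein genes. Among members under 1% the largest difference between the limbs was 0.802 percentage points at 4 weeks and 0.891 at 12 weeks. The depth behind these values was 45 reads or more in every library, with a median of 979 reads at 4 weeks and 1023 at 12 weeks for a gene's shallowest library. Intervals from such reads would cover counting error only. Over all cytosines read at 12 weeks, the oxBS libraries of control replicate 2 and DMM replicate 1 had 25.1% and 24.8% C. The other oxBS libraries of that week had 29.9% to 32.0%. The labels of control replicate 2 and DMM replicate 1 are also written in another style than the others. Their part in the spread within the limbs was not tested.

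**Figure D5:**
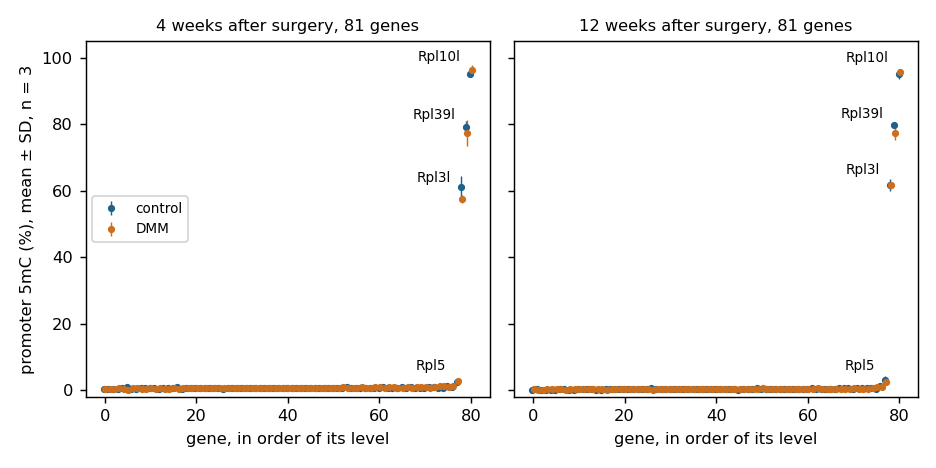
Promoter 5mC in percent of oxBS reads (vertical, mean and SD of 3 libraries) for 81 ribosomal protein genes in order of their level (horizontal), at 4 weeks (left) and 12 weeks (right), with control in blue and DMM in orange. All but Rpl3l, Rpl39l and Rpl10l lie near 0, and no gene was called between the limbs.

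The bisulfite (BS) libraries of the same DNA count 5mC and 5-hydroxymethylcytosine together, so that the difference from oxBS reads the latter. Summed over the 78 promoters without those 3 paralogs, the oxBS libraries had 0.686% to 0.772% C at 4 weeks and the BS libraries 0.711% to 0.775%, and at 12 weeks 0.358% to 0.442% and 0.402% to 0.469%. The BS value was below the oxBS value in control replicate 3 at 4 weeks (0.711% and 0.772%). It was also below in DMM replicates 2 (0.718% and 0.739%) and 3 (0.726% and 0.730%) at 4 weeks, and above in the other pairs. At Rpl5 the BS value was above the oxBS value in all 12 pairs of libraries, by 1.79 to 4.88 percentage points. At Rpl3l it was between 7.62 points below and 6.98 points above, which gives the error of such a difference at 9 cytosines. For DMM replicate 1 at 12 weeks the deposited BS data carry the number of another replicate, so that this may not be a pair. Its values lie inside both ranges, with 3.28 points at Rpl5 and −3.80 points at Rpl3l.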

How the data were processed

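For RNA-seq, FLEXBAR trimming, STAR alignment to mm10 and featureCounts on RefSeq transcripts were run by the authors, who deposited unnormalized counts. The labels describe poly(A) libraries, whereas the study's methods name a SMART-Seq low-input cDNA kit with Nextera XT, and which holds is unsettled. RRoxBS: the authors digested DNA with MspI and made oxBS and BS libraries, and the deposited values are the count of reads (coverage, at least 10) and the percent of C and of T at each CpG cytosine. CASAVA 2.17 and Bismark are named in the submitters' processing notes. Groups were taken from the labels.

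Each comparison was fitted on all transcripts with edgeR 4.0.16 in R 4.3.3 (TMM, filterByExpr, robust quasi-likelihood test, Benjamini-Hochberg adjusted p under 0.05). Promoters were tested by a quasi-binomial F test with scipy 1.17.1. Both were run on simulated data, whose planted changes were larger than most differences described here. Those runs do not show the power for smaller differences. Alternatives were DESeq2 1.42.0, other scaling, filters and windows, limma 3.58.1 on log2 ratios with a pseudocount of 1, a replicate block, and leaving out each library. The genes, lists and named-gene rule were chosen with earlier results of these data known. Named were the 5 genes with the highest counts per kilobase, the 5 highest and 5 lowest differences per comparison, all called genes, and fixed sets of core genes and paralogs. Some genes that this rule takes are not reported here. Of fixed paralogs, Rps4l had no coding transcript. No value of human, cell culture or histology experiments was used.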

Additional observations from a re-analysis of the deposited data

How the results depend on the processing

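The number of ribosomal protein genes called was 0 for DMM against control cartilage at 12 weeks, for the interaction and for the control time course under each alternative run, and 0 for promoters at both weeks. At 4 weeks it was 1 (Rpl3l) instead of 0 with DESeq2 and 1 with a replicate block. Between the weeks in DMM cartilage it was 7 with DESeq2, 1 with 1 transcript per gene, 2 with RLE size factors, 2 with no filter and 5 with all 12 libraries in 1 fit (Rps3a1 not among them), instead of 3, and 0 to 17 without single libraries. The cause was not tested. Over all transcripts the named settings called, in that order, 6250 of 25457, 3282 of 15382, 4826 of 20951, 4836 of 25493 and 5109 of 21618. Without single libraries 1995 to 7441 transcripts were called. Without single libraries, the median log2 difference ran from 0.18 to 0.47 at 4 weeks, −0.14 to 0.03 at 12 weeks, −0.52 to −0.21 in the interaction, −0.03 to 0.27 in the control and −0.41 to −0.15 in the DMM time course, and the difference in share from 0.0240 to 0.0683 points at 4 weeks and −0.0272 to −0.00701 points at 12 weeks. Sign turned for Rpl3l at 12 weeks (−0.15 with a replicate block, −1.76 to 1.95 without single libraries) and in the DMM time course (−0.62 to 1.93), for Rpl9 at 4 weeks (−0.58 to 0.058) and for Rpl39l in the interaction (−0.10 to 0.51). With only genes that had at least 50% of coding stretches at 1 place, an alternative chosen after seeing the data, the medians were 0.26, −0.01, −0.23, 0.10 and −0.18 in the same order. DESeq2 called 740 transcripts at 4 weeks, 862 at 12 weeks and 16 in the interaction, against 16, 1 and 0 by edgeR, and 2592 against 0 in the control time course. The replicate block called 354, 734 and 0. Same-numbered libraries of both limbs had correlations of 0.36, −0.33 and 0.08 at 4 weeks and −0.55, 0.26 and −0.25 at 12 weeks, not every library was closest to its own number, and the numbers were not taken to pair libraries. The main limb tests were therefore unpaired, although the control and DMM knees came from the same animals. The time courses compare different mice, and no number links libraries of different weeks. Depth limits the 15 genes under 1 CPM most.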
